A study of Mus musculus with 12 samples.

Results

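The liver makes bile acids from cholesterol, secretes them into bile and takes them back up from portal blood. Enzymes such as CYP8B1 and HSD3B7 shape the steroid nucleus, NTCP (Slc10a1) imports bile acids from blood, and BSEP (Abcb11), MDR2 (Abcb4) and MRP2 (Abcc2) carry bile acids, phospholipids and organic anions across the canalicular membrane. N6-methyladenosine (m6A) is an internal mark of mRNA that is placed by the METTL3 methyltransferase, often near the stop codon and in the 3′ untranslated region (UTR), and that affects the decay, export and translation of transcripts.

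The members described here are all rows of the deposited peak table that carry one of the gene names Cyp8b1, Hsd3b7, Slc10a1, Abcb11, Abcb4 and Abcc2. They are 15 peaks in 6 genes, out of 17503 peaks in 10277 named genes. The study measured m6A in the livers of C57BL/6 mice by precipitating fragmented poly(A) RNA with an anti-m6A antibody and sequencing it (MeRIP-seq). Its 12 libraries form 4 groups of 3 replicates, which are precipitated and input RNA of wild-type liver and of Mettl3-deficient liver. The series title calls the liver postnatal. The labels used here do not state age, sex, the way in which Mettl3 was removed or the cells that lost it.

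The authors deposited a table of their comparison of Mettl3-deficient and wild-type liver, with a log2 fold change and a false discovery rate (FDR) for each peak. Without values per library, the level in each mouse, the read depth and the spread between replicates are unknown here, and no new test of a single peak could be made. The header does not name the numerator of the fold change. Since the design compares loss of the m6A writer with wild type, negative is likely to mean less m6A signal without Mettl3, but this rests on the design alone and values are given only as negative or positive. An FDR of at most 0.05 in the deposited table counts as called. The sources used here do not say whether that FDR includes the spread between mice, so a call is not evidence of a difference beyond it. In bulk liver, fewer cells of a type and less RNA per cell cannot be told apart. Of 8 hepatocyte markers, 7 had a listed peak (Alb, Ttr, Apoa1, Apob, Tat, Hp and Serpina1a), while Cps1 was not analysed here. Listed peaks were also present for 4 of 8 cholangiocyte, 4 of 6 endothelial, 2 of 6 macrophage and 3 of 6 stellate cell markers. By the peak with the smallest FDR, 4 hepatocyte markers were negative and 3 positive, 2 cholangiocyte markers were negative and 2 not called, 1 macrophage marker was negative and 1 not called, and all 4 endothelial and all 3 stellate markers were positive. By the same measure 47.6% of all genes were negative and 33.6% positive. Their part in the results below was not tested.

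Peaks labelled 3′ UTR in these genes were mostly negative and peaks labelled 5′ UTR mostly positive. The positive 5′ UTR peaks come only from Hsd3b7 (3 peaks), Abcb11 and Abcc2. Of those of Hsd3b7, a plus-strand gene, 2 have rows that stand among those of minus-strand genes. The Abcb11 peak begins 12893 bp after the RefSeq start of its gene, and the Abcc2 peak ends 26 bp before that of its own. All 15 peaks were called, against 76.2% of all listed peaks. Of them, 8 were negative (40.6% in the whole table) and 7 positive (35.6%). Of the 8 peaks labelled 3′ UTR, 7 were negative, where the share over all peaks with that label was 48.9%, and 1 was positive (32.1%). Of the 6 peaks labelled 5′ UTR, 5 were positive, against 53.4% of all peaks with that label, and 1 was negative (23.0%). These shares include peaks that were not called. Among called peaks alone, 60.4% of those labelled 3′ UTR were negative and 69.9% of those labelled 5′ UTR positive. The remaining peak, in an internal exon of Abcb4, was positive, as were 23.9% of all peaks with an exon label. Median changes were -1.12 over the 3′ UTR peaks and 0.98 over the 5′ UTR peaks. The whole table leans the same way at each end, and no test of a difference from it was made.

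Several of these rows cover the same stretch of the genome. Of the 15 rows, 6 overlap another row of their gene, and joining rows that share at least 1 bp leaves 12 regions, of which 6 are negative and 6 positive. Joining took no account of strand, and the overlapping 5′ UTR rows of Hsd3b7 stand among genes of different strands. Over all peaks, 1825 rows (10.4%) overlap another row of the same gene. Of the 6 regions labelled 3′ UTR, 5 were negative, and of the 5 labelled 5′ UTR, 4 were positive. Only 2 of the positive peaks reached a log2 fold change of 1, while 6 of the 8 negative peaks reached -1. The whole table has the same asymmetry, with 21.9% of called positive and 71.3% of called negative peaks reaching that size.

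**Figure D1:**
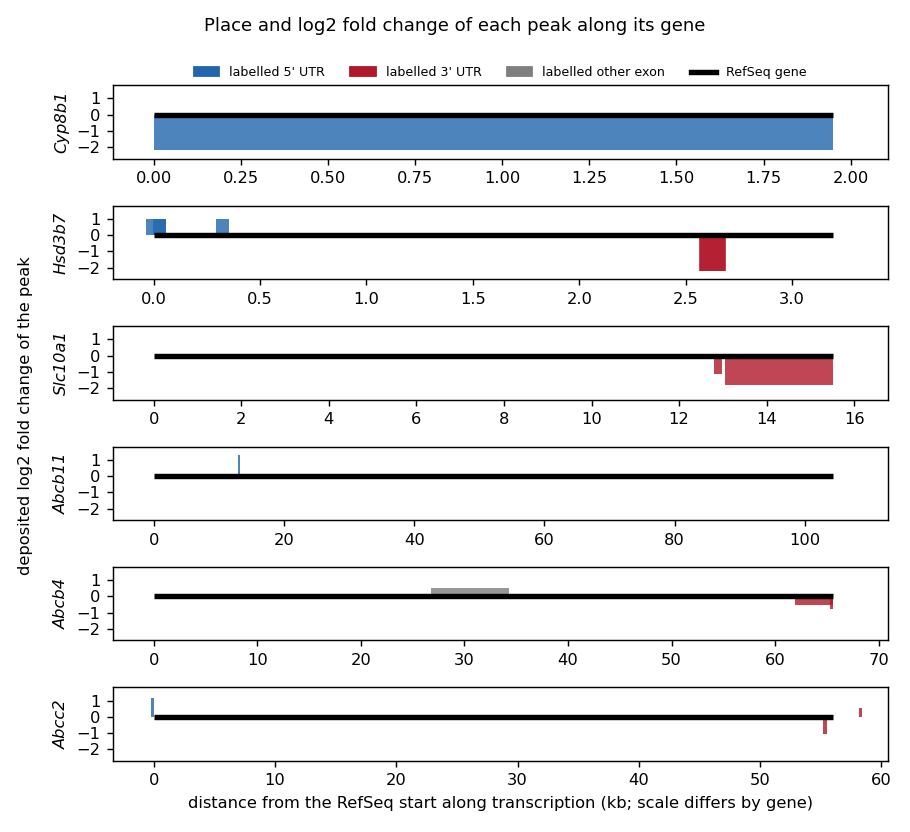
Each bar is a listed peak, drawn at its distance in kb from the RefSeq start of its gene (black line) with its deposited log2 fold change as height; narrow peaks are widened to stay visible and the horizontal scale differs by gene. Red bars (labelled 3′ UTR) lie below 0 in Hsd3b7, Slc10a1 and Abcb4, and in Abcc2 a bar past the gene's end lies above 0.

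The synthesis enzymes carried the most negative values of the set. CYP8B1 is the sterol hydroxylase that directs synthesis toward cholic acid and so sets the balance between cholic and chenodeoxycholic acid. Cyp8b1 (ENSMUSG00000050445) had 1 peak, at chr9:121914356-121916305 on mm10, with a log2 fold change of -2.17 in the authors' deposited table. That is a ratio of 0.222, and its log10 FDR of -434 is the floor of the scale, which 485 peaks (2.77%) share. The peak is labelled 5′ UTR, but it spans 1950 bp, from the first to the last base of the RefSeq gene on the minus strand, so it cannot be assigned to an end of the transcript. Among the 978 negative peaks with the 5′ UTR label, 8.49% had a larger change. It is the only negative peak with that label among these genes, and the label rests on a peak as long as the gene. The first bases of the transcript, which lie under this peak, hold 1 match to the m6A consensus. That consensus, known as DRACH, was searched on the transcribed strand as the 18 words of the form NNACN whose first base is not C, whose second is a purine and whose last is not G, with overlaps allowed. The stretch around the start is shown because it is the part of the peak held in the RefSeq promoter table (GRCm38.p6, the same build as mm10), at chr9:121916281-121916310 on the minus strand, including 5 bases before the start, with the match in capitals:
Cyp8b1: gcgctgtagagcTGACAagtggagctcagc
The match TGACA begins 7 bases after the RefSeq start base. Over the first 50 bases, 54.4% of 32851 RefSeq starts hold at least 1 such match.

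HSD3B7 is the microsomal dehydrogenase and isomerase that acts on the steroid ring after the first hydroxylation of cholesterol, and its loss causes an inherited defect of bile acid synthesis. Hsd3b7 (ENSMUSG00000042289) had the wider difference of the 2 genes with called peaks in both UTRs. The authors' deposited table gives 2 almost coincident 3′ UTR peaks, at chr7:127803173-127803293 and chr7:127803177-127803296, both with a log2 fold change of -2.18 and both at the floor of the FDR scale. The ratio is 0.221, and 13.1% of the 4799 negative 3′ UTR peaks of the table had a larger change. Both lie toward the end of the RefSeq gene, with midpoints at 82.2% and 82.3% of its length. At the other end, peaks at chr7:127800574-127800664 and chr7:127800604-127800664 overlap the RefSeq start at 127800609 and have, in the authors' deposited table, values of 0.97 (log10 FDR -8.17) and 0.98 (log10 FDR -8.24). A further peak at chr7:127800903-127800963, which the authors tied to another transcript of the gene, stood at 0.98 (log10 FDR -1.80) there. All 3 are therefore near a ratio of 1.97, while the 3′ peaks are lower by 3.16 on the log2 scale than the leading 5′ peak. The leading peak is the one with the smallest FDR. Of the 1475 genes with called peaks in both UTRs, 60 (4.07%) had a lower difference between the 3′ and 5′ leading peaks. The sequence at the start is shown because both overlapping 5′ peaks cover it, at chr7:127800604-127800633 on the plus strand and also from 5 bases before the start, with the first transcribed base of the RefSeq start in capitals:
Hsd3b7: ggaggGaggagcgagcggaaggaaggaagc
On the plus strand, no consensus match lies in the 85 bp that the wider of these peaks shares with the promoter window. In the same positions 71.7% of all RefSeq starts hold at least 1. The narrower peak shares 55 bp and holds no match either, against 57.3% of RefSeq starts with at least 1. The row of the wider peak stands among those of minus-strand genes, and the minus strand was not searched. The search says only that these letters are not on the plus strand of this window.

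The uptake carrier had negative values alone. NTCP is the sodium-dependent carrier of the sinusoidal membrane that takes conjugated bile acids from blood into hepatocytes. Slc10a1 (ENSMUSG00000021135) had 2 peaks, both labelled 3′ UTR and both negative. In the authors' deposited table the larger one, at chr12:80953183-80955666, has -1.82 (log10 FDR -434), a ratio of 0.283. It spans 2484 bp on the genome and reaches the 3′ end of the gene on the minus strand. The smaller one, at chr12:80955726-80955904, stood at -1.15 in the authors' deposited table, but with a log10 FDR of -1.61 it is not called at an FDR of 0.01. The peaks do not overlap, and their midpoints lie at 92.0% and 83.1% of the RefSeq gene. No peak near the start of Slc10a1 was analysed here, so its ends could not be compared.

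The canalicular exporters were mixed, and their negative values were nearer to 0 than those of Cyp8b1, Hsd3b7 and Slc10a1. The smaller Slc10a1 peak, at -1.15, was close to the -1.08 of Abcc2, and these differences were not tested. BSEP is the main pump of bile acids into bile. Abcb11 (ENSMUSG00000027048) had a single peak, at chr2:69329311-69329723, to which the authors' deposited table gives a log2 fold change of 1.29 (log10 FDR -9.59). This ratio of 2.45 is the highest value of the 15 peaks, and 8.50% of the 2271 positive 5′ UTR peaks had a larger change. Although labelled 5′ UTR, the peak begins 12893 bp after the RefSeq start of the gene, with its midpoint at 12.6% of the gene, and the authors' deposited distance from the transcript start is 12891 bp. Of the 872 peaks labelled 5′ UTR with a deposited distance above 0, 32.5% were positive, against 58.8% of the 3380 with a distance of 0. No 3′ peak of Abcb11 was analysed here.

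MDR2, the product of Abcb4, moves phosphatidylcholine into bile, where it protects the ducts from bile acids. Abcb4 (ENSMUSG00000042476) had 3 peaks with small changes of both signs. Toward its 3′ end, overlapping peaks at chr5:8955580-8959226 and chr5:8958877-8959231 have values of -0.51 (log10 FDR -50.1) and -0.80 (log10 FDR -35.6), per the authors' deposited table. The authors tied the wider one to a retained-intron transcript and the narrower one to a protein-coding transcript. Their ratios of 0.702 and 0.574 are small for the class, since 93.1% and 80.7% of negative 3′ UTR peaks had larger changes. The third peak, at chr5:8920398-8927888, is labelled as exon 12 of 28 and is given in the authors' deposited table at 0.50 (log10 FDR -6.53). It spans 7491 bp on the genome, introns included, and its midpoint lies at 46.5% of the gene. The internal and 3′ regions of Abcb4 therefore have opposite signs, with 1.30 between the highest and the lowest peak on the log2 scale.

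MRP2, the product of Abcc2, exports conjugated bilirubin, glutathione and divalent bile acid conjugates. Abcc2 (ENSMUSG00000025194) had 3 peaks, and they alternate in sign along the chromosome. The authors' deposited table gives 1.16 (log10 FDR -2.49) for the peak labelled 5′ UTR, at chr19:43782192-43782282. It gives -1.08 (log10 FDR -109) for the 3′ UTR peak at chr19:43837447-43837777, again in the authors' deposited table, with its midpoint at 98.7% of the gene. These are ratios of 2.23 and 0.473, and the difference of -2.24 between 3′ and 5′ ends had 218 of 1475 genes (14.8%) below it. The 5′ peak rests on the weakest evidence of the Abcc2 peaks and is not called at an FDR of 0.001. It also ends 26 bp before the RefSeq start at 43782308, so it lies in what RefSeq holds as upstream sequence, although the authors' annotation places it in the 5′ UTR. Its 91 bp hold 3 consensus matches, which begin 98, 73 and 41 bases before the RefSeq start. In the same positions 75.0% of RefSeq promoter windows hold at least 1 match. The match nearest the start, AGACT, is shown because it lies in a peak that RefSeq places outside the gene, at chr19:43782255-43782283 on the plus strand, with its letters in capitals:
Abcc2: tgaaaggtcaggAGACTtgcctttaattg

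The third Abcc2 peak, at chr19:43840441-43840740, is the only positive 3′ UTR peak of these genes, given at 0.56 (log10 FDR -17.4) by the authors' deposited table. It begins 2109 bp past the RefSeq end of Abcc2 at 43838332. All 300 of its bases lie in Gm10768, a long noncoding RNA gene that RefSeq places at chr19:43838803-43840845 on the same strand. No row of the table carries the name Gm10768, and whether the reads came from an extended Abcc2 transcript or from Gm10768 cannot be told apart here. Without the 2 Abcc2 peaks outside its RefSeq span, the positive peaks of the 6 genes number 5 and all 7 remaining 3′ UTR peaks are negative.

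**Figure D2:**
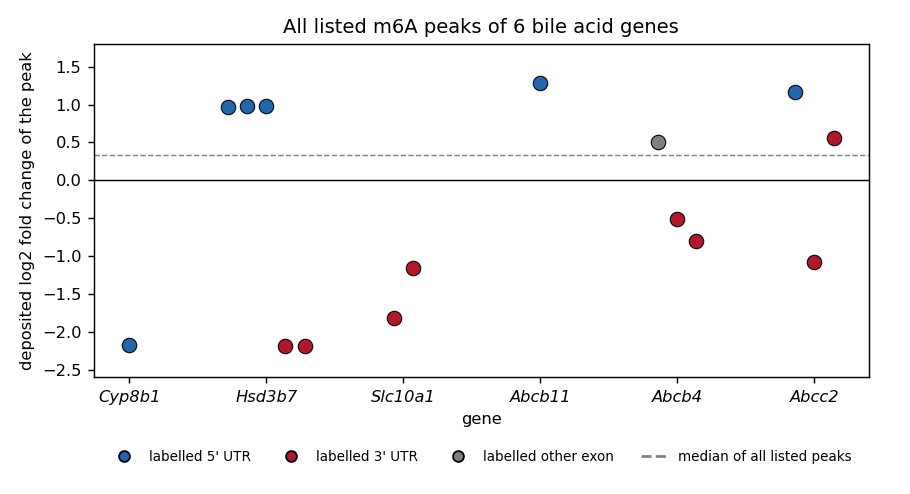
Points are the 15 listed peaks, with the deposited log2 fold change on the vertical axis, the gene on the horizontal axis and the colour giving the annotated feature; the dashed line is the median of all listed peaks, 0.34. Red points (3′ UTR) lie below 0 except the Abcc2 peak at 0.56, and blue points (5′ UTR) lie above 0 except the peak of Cyp8b1 at -2.17.

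Of the 6 genes, 3 held called peaks of both signs (Hsd3b7, Abcb4 and Abcc2), 2 negative peaks only (Cyp8b1 and Slc10a1) and 1 a positive peak only (Abcb11). Over all 10277 genes of the table, 12.4% held both signs. Among the 4593 genes with at least 2 listed rows the share was 27.8%. Cyp8b1 and Abcb11 have 1 peak each and so cannot hold both signs. Called peaks in both UTRs were present in Hsd3b7 and Abcc2 alone, and both genes had a positive leading peak at the 5′ end and a negative one at the 3′ end. In the whole table this arrangement was seen in 35.3% of 1475 such genes and the opposite in 5.83%. With a minimum absolute change of 1, or without peaks outside the RefSeq span, 1 gene keeps the arrangement in place of 2, since the 5′ peak of Hsd3b7 falls under the minimum and that of Abcc2 lies outside the span. With the table's median subtracted, none of the 15 peaks changed sign.

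**Figure D3:**
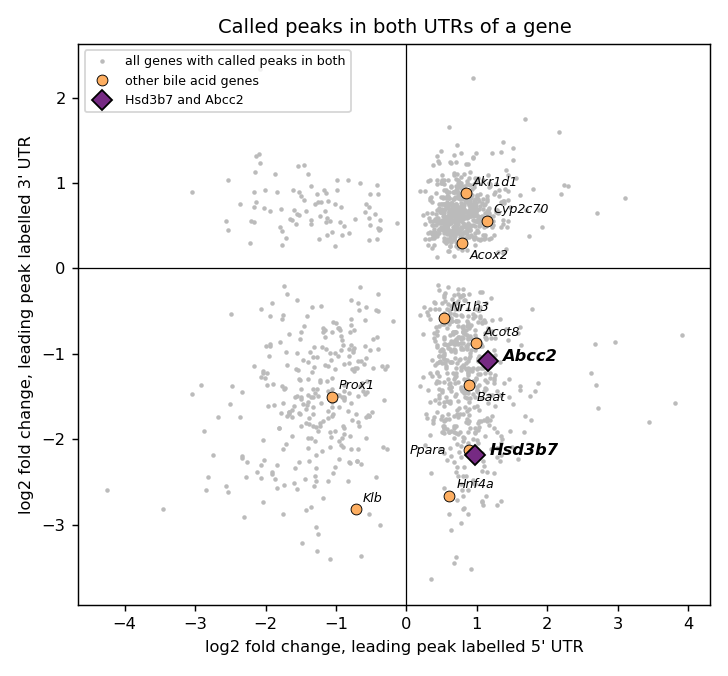
Each point is a gene with called peaks in both UTRs, with the log2 fold change of its leading 5′ UTR peak on the horizontal axis and that of its leading 3′ UTR peak on the vertical axis; grey points are all 1475 genes, orange points other bile acid genes reported by name and purple diamonds Hsd3b7 and Abcc2. Both diamonds lie at the lower right, at 0.98 and -2.18 and at 1.16 and -1.08.

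Other genes of bile acid biology were taken from 3 lists of 20 genes each, for synthesis, transport and regulation. The lists were chosen with earlier results of these data known, so their counts only describe them. Of these 60 genes, 42 had a listed peak, and the other 18 were not analysed here, among them Cyp7a1 and Cyp27a1, which start the main and the alternative route of synthesis. By leading peak, 23 of the 42 were negative (47.6% of all genes), 14 positive (33.6%) and 5 not called. Their median leading change was -0.67, against -0.52 over all 10277 genes. Peaks of these lists were counted under their deposited label at any width. Where a peak is long on the genome, its label may not place it at an end of the transcript.

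The other synthesis genes were on the positive side more often than not. Of 10 with a listed peak, 4 were negative and 6 positive, with a median of 0.57. Over all genes 47.6% were negative and 33.6% positive. All negative leading peaks of this list are labelled 3′ UTR and most positive ones 5′ UTR. The list leaves out Cyp8b1 and Hsd3b7, whose leading peaks were negative. In the authors' deposited table Baat, which joins bile acids to taurine or glycine, stood at -1.36 at its leading 3′ UTR peak and at 0.89 in the 5′ UTR. Acot8, a peroxisomal thioesterase gene, had the same arrangement, with -0.87 and 0.99 in the authors' deposited table. Amacr (-0.82), the racemase of the side-chain pathway, and the acyl-CoA synthetase gene Slc27a2 (-0.88) were negative in their 3′ UTR in the authors' deposited table. For the positive genes, the authors' deposited table gives 1.02 for Scp2 and 0.57 for Hsd17b4, both peroxisomal enzymes that shorten the side chain, and 0.79 for Acox2, the oxidase of the same step. It gives 0.71 for Akr1c6, a hydroxysteroid dehydrogenase gene (authors' deposited table). All 9 called 5′ UTR peaks of this list were positive, and of its called 3′ UTR peaks 5 were negative and 3 positive. Some of these peaks are long on the genome. They include the 5′ UTR peaks of Scp2 (chr4:108105156-108118498) and Hsd17b4 (chr18:50128201-50142465) and the 3′ UTR peak of Baat (chr4:49489422-49499718). Over all listed peaks, 69.9% of called 5′ UTR peaks were positive and 60.4% of called 3′ UTR peaks negative, so the 3′ count is near the table's own share. The negative sign at the 3′ end that Hsd3b7 showed was thus not shared by every synthesis gene: Acox2, Akr1d1 and Cyp2c70 had positive 3′ UTR peaks, at 0.30, 0.88 and 0.56 in the authors' deposited table.

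The other transport genes were nearly evenly split, with 7 negative, 6 positive and 3 not called of 16 and a median of -0.12. Over all genes 47.6% were negative and 33.6% positive. Atp8b1, the phospholipid flippase gene mutated in a familial cholestasis, stood at -2.81 in its 3′ UTR in the authors' deposited table. A further peak tied to it, labelled as an exon and not as 5′ UTR, stood at 1.13 there (log10 FDR -2.2). The authors' deposited table gives -1.83 for Abcg8, a subunit of the biliary sterol exporter, -0.86 for Tmem30a, the partner subunit of flippases, and -0.45 for Abcc3, the basolateral exporter. Positive leading peaks in the authors' deposited table were 0.60 for Ephx1, 1.37 for Slco2b1, 0.76 for Slco1b2 and 0.94 for Slc22a7, the last 3 being sinusoidal carriers of organic anions. Among uptake carriers with a called leading peak labelled 3′ UTR, Slc10a1 and Slco1a1 (-1.18) were negative and Slco1b2 positive in the authors' deposited table. The leading peak of Slco2b1 is labelled 5′ UTR. Slco1a1 was named after its value was seen, and whether these carriers differ from each other was not tested.

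The regulators were mostly negative, with 12 negative, 2 positive and 2 not called of 16 and a median of -1.46. Over all genes the shares by leading peak were 47.6% negative and 33.6% positive. As the list was chosen with earlier results known, this difference is only described and was not tested. Of the regulators' called 3′ UTR peaks 16 were negative and 1 positive, where 60.4% of all called 3′ UTR peaks were negative. The regulators' count includes several peaks of the same gene, as for Rxra. In the authors' deposited table Nr0b2, which encodes the repressor SHP that shuts down bile acid synthesis, stood at -2.06, and Rxra, the shared partner of nuclear receptors, at -1.82. The authors' deposited table gives -2.66 for Hnf4a, a nuclear receptor that drives hepatocyte genes, with positive peaks at 0.61 in the 5′ UTR and at 0.67 (log10 FDR -56.3) farther along the 3′ UTR. Nr1h3, the oxysterol receptor gene, and Ppara likewise held both signs, with -0.58 and 0.53 for the first and -2.13 and 0.89 for the second in the authors' deposited table. The positive genes in the authors' deposited table were Nr1i3 (0.98), the xenobiotic receptor CAR, and Smarcd1 (0.72), a chromatin remodeller subunit.

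**Figure D4:**
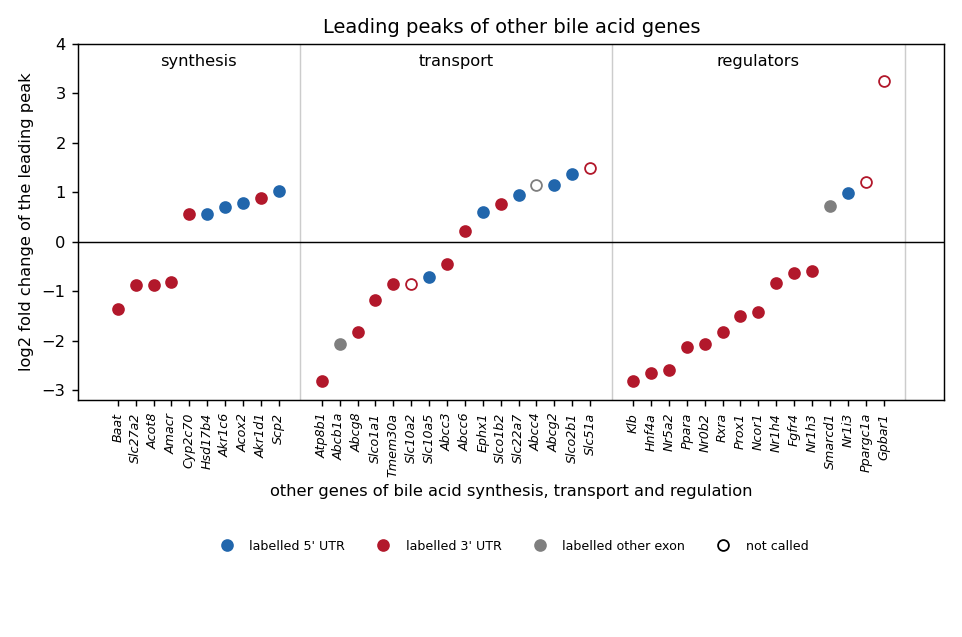
Points are the leading peaks of the other bile acid genes that are reported by name, ordered by deposited log2 fold change within the synthesis, transport and regulator lists; colour gives the annotated feature and open points were not called. Regulators lie mostly below 0, while the synthesis list has 6 of its 10 genes above 0.

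Of the 42 genes, 11 had called peaks in both UTRs, and 6 of them paired a positive 5′ with a negative 3′ leading peak, 3 positive in both, 2 negative in both and none the opposite way. Over all 1475 such genes, 35.3% had the first arrangement and 5.83% the opposite one. Likeness to Hsd3b7 and Abcc2 was measured as the Euclidean distance over the pair of leading changes, 5′ and 3′ UTR, among these 11 genes. Nearest to Hsd3b7 was Ppara (distance 0.103), and nearest to Abcc2 were Acot8 (0.270) and Baat (0.389). This likeness rests on 2 values per gene from 1 comparison.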

How the data were processed

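The submitters' processing notes name HISAT2 2.1.0 and the mm10 build. How peaks were called and filtered, whether replicates were pooled and how genotypes were compared is not given in the sources used here. The table is the authors' comparison and, per the file headers, holds a log2 fold change and a log10 FDR, both treated here as a score because 189 of 17692 rows without a gene name hold them in another order and were left out, and because the FDR has a floor. The authors deposited the p-value rounded to 2 decimals, and it was not used. Other deposited measures are genomic start, end, width and the distance from the transcript start. Depth is unknown, and without values per library no fit, with or without a replicate block, was run.

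Counts, medians and percentages were computed with Python 3.11.15, numpy 2.4.6 and pandas 2.3.3, and figures with matplotlib 3.10.9. Counting steps were tested on simulated data. Gene spans came from RefSeq (GRCm38.p6). All 6 symbols matched. Genes named were the 6 members with every peak, in each list up to 4 negative and 4 positive called genes by FDR, genes with called peaks of both signs, and the 2 nearest by distance. Cps1, Cyp7a1, Cyp27a1, Gm10768, Akr1d1, Cyp2c70 and Slco1a1 were named outside that rule, after their values were seen, and cell type markers from a fixed list. Some genes of the lists are not reported here by name but stay in the counts. Members and lists were chosen with earlier results of these data known. Alternatives were FDR 0.01 and 0.001, a minimum absolute change of 1, centring, peaks of up to 1000 bp, other rules for gene ends and leading peaks and, added after seeing the data, joined rows and peaks inside the RefSeq span.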

Additional observations from a re-analysis of the deposited data

How the results depend on the processing

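No paired analysis was possible because the table holds no values per library, and no replicate could be left out. With a minimum absolute change of 1, positive member peaks numbered 2, genes with a positive 5′ and negative 3′ leading peak 1, and pathway genes 14 negative and 3 positive. At an FDR of 0.001, and without peaks outside the RefSeq span, 1 gene kept that arrangement. With peaks of at most 1000 bp, 5 member peaks were negative. The mean over all peaks of a gene gave -0.29 for Hsd3b7, -0.27 for Abcb4, -1.49 for Slc10a1 and, reversed, 0.21 for Abcc2. The leading peak of Abcc2 also reversed, to 1.16, when chosen by size of change. The cause was not tested beyond the construction of each alternative. At an FDR of 0.01, relative to the median of all peaks, and with overlapping rows joined, counts stayed within 1.5 times and no member's leading peak changed sign where that was computed.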

Other observations

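The table has no strand column, but its rows are ordered by chromosome and, within a chromosome, nearly by strand. With the best single split of each chromosome, 12431 of 13325 rows with a RefSeq strand (93.3%) lay on the side of their gene's strand, and a last run of 289 rows repeats the chromosomes. Of the 15 member peaks 11 lay on the side of their own gene, while 2 of Hsd3b7, a plus-strand gene, lay among minus-strand genes. These are the peaks at chr7:127800574-127800664 and chr7:127800903-127800963, with 0.97 and 0.98 in the authors' deposited table. The peak of Abcb11 and the narrower 3′ peak of Abcb4 lay in the last run. The strand on which these 4 peaks were called was not tested.

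The Abcc2 peak past the end of the gene belongs to a wider class. Of 7694 peaks labelled 3′ UTR whose gene has a RefSeq span and strand, 250 lay wholly past the RefSeq end, of which 33.2% were negative and 27.2% positive, against 50.1% and 32.2% of the 7444 others. In 61 genes a called 3′ UTR peak lay inside the gene and another past its end. As in Abcc2, the inner one was negative and the outer one positive in 23 of them (37.7%), and the reverse held in 13 (21.3%).

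Among the 9 genes that the table annotates to the KEGG term of primary bile acid biosynthesis, Cyp8b1 and Hsd3b7 had the most negative leading peaks. Of these 9 genes 5 were negative (55.6%) and 4 positive (44.4%), against 47.6% and 33.6% of all genes.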
